A study of Caenorhabditis elegans with 2 samples.

Results

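The 72 genes described here encode translation factors and aminoacyl-tRNA synthetases of Caenorhabditis elegans. They were taken by a rule on gene names from the Ensembl annotation of assembly WBcel235, which is ce11. The rule was chosen with earlier results of these data known. A protein-coding gene was taken when its name began with eif-, eef-, ife-, iff-, ifg- or pab-, or when it was a single letter followed by ars-1 or ars-2. The rule took 41 translation factors and 31 tRNA synthetases, out of 19973 nuclear protein-coding genes. Factors with other names, such as inf-1 (eIF4A), drr-2 (eIF4H), erfa-1, erfa-3 and the synthetase subunit gene fars-3, are not among the 72, and counts of translation factors or synthetases below cover only the genes that the name rule took.

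The study mapped where a GFP-tagged DMD-8 protein lies on chromatin, by chromatin immunoprecipitation with an antibody against GFP and sequencing (ChIP-seq). All samples were whole L4 larvae aged 48.5 hours of strain OP775. The strain carries the transgene wgIs775, in which dmd-8 is fused to TY1, EGFP and 3xFLAG, together with unc-119(+), in an unc-119(tm4063) background. The worms had been bleached and then held without food at the L1 stage to bring them into step, and there were 2 biological replicates of this single group. The protein measured is a tagged transgene product, and the signal is an average over all cells of the worm. There is no second genotype, treatment or stage, so the comparisons below are between genes, between peak lists and between the replicates, and none has a p-value.

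Protein synthesis begins when initiation factors bring the small ribosomal subunit, the initiator tRNA and a capped mRNA together. Elongation factors then carry charged tRNAs to the ribosome and move it along the message, and the aminoacyl-tRNA synthetases charge each tRNA with its amino acid. DMD-8 is a member of the DM domain proteins, which bind DNA and are known for roles in sexual development. Many worm transcripts are trans-spliced, so the annotated 5′ end of a gene can lie downstream of the place where transcription starts.

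The sequences under 5 peaks are shown because the results below turn on them. The first 4 came from promoters, and the last is a strong peak just outside a promoter. They were read from the RefSeq genome sequence of ce11 and are written 5′ to 3′ on the strand of the gene, cut to the part of the peak outside protein-coding exons. Capitals mark matches, on either strand, to the motifs CCGCCC (the core bound by KLF and SP zinc finger proteins), GAGAG (a repeat of GA), TATAAA (the TATA box), ACAATGT (the core bound by DM domain proteins), CAGCTG (an E box) and the tRNA gene B box GTTCGANNC. Capitals also mark TGGCNNAGT and GTTCNANNC, looser forms of the tRNA gene A box and B box that were added after the eif-3.G sequence had been read. The stretches are chrV:10965587-10965718 (plus strand) for eef-1G, chrX:13527416-13527660 (minus strand) for pab-2, chrII:6968348-6968583 (minus strand) for eif-2Bgamma, chrIII:6971966-6972245 (minus strand) for eef-1A.1 and chrII:8441611-8441770 (plus strand) for the peak upstream of eif-3.G. The eef-1G stretch ends before the summit, which lies in the 5′ UTR.
eef-1G: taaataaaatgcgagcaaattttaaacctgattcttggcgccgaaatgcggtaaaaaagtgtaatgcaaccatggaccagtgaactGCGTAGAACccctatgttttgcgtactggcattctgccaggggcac
pab-2: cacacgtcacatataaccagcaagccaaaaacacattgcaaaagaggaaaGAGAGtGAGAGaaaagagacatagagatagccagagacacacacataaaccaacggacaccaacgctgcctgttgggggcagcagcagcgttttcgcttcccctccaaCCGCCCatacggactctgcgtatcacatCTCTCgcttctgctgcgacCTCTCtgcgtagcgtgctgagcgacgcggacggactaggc
eif-2Bgamma: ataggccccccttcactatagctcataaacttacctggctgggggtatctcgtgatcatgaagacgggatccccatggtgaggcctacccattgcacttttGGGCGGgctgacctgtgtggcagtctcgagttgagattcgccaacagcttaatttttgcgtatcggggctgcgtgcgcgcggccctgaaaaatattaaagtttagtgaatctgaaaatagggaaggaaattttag
eef-1A.1: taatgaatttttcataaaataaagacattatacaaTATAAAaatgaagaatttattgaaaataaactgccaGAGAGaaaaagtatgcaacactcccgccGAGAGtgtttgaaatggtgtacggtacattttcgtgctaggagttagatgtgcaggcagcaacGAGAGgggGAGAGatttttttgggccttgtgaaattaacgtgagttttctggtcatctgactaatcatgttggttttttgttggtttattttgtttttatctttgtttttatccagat
eif-3.G upstream peak: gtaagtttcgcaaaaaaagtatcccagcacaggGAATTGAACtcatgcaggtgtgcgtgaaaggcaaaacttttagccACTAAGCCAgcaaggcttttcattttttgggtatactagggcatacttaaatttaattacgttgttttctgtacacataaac

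A gene was called bound when the summit of a peak, its highest point, lay between 1000 bp upstream and 200 bp downstream of its annotated 5′ end. The main peak set was the authors' conservative list of 1537 peaks, which rests on both replicates. Of the 72 genes, 5 were bound in that list, which is 6.94% (exact 95% interval 2.29 to 15.5%), beside 2.55% of all 19973 genes. All 5 encode translation factors, so 5 of 41 translation factors were bound, or 12.2% (4.08 to 26.2%). None of the 31 tRNA synthetases was bound. A count of 0 in 31 allows a share of up to 9.68% by a limit of 3 counts (exact 95% interval 0 to 11.2%). The background of 2.55% lies inside the interval around 0 in 31, so at this number of genes a lower share of bound synthetases was not detectable. These intervals cover counting error only, and neighbouring genes are not independent.

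The 5 bound genes were eif-3.C, pab-2, eif-2Bgamma, eef-1G and eef-1A.1. Together they take in initiation, elongation and the binding of poly(A) tails. Without peaks within 200 bp of a tRNA, snoRNA, snRNA or miRNA gene, the count was 3, namely eif-3.C, pab-2 and eef-1G, beside 2% of all genes. In the optimal list of 1556 peaks, which left out the eef-1A.1 peak, 4 of the 72 genes were bound, or 5.56%, beside 2.52% of all genes. In the shorter thresholded list of replicate 1, with 629 peaks, 3 of the 72 were bound, or 4.17%, beside 0.941% of all genes. Those 3 were eif-3.C, eef-1G and iff-2. In the thresholded list of replicate 2, with 545 peaks, none of the 72 was bound, which allows up to 4.17%, beside 0.821% of all genes. The count in the combined lists was therefore not matched in the list of replicate 2 alone.

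**Figure D1:**
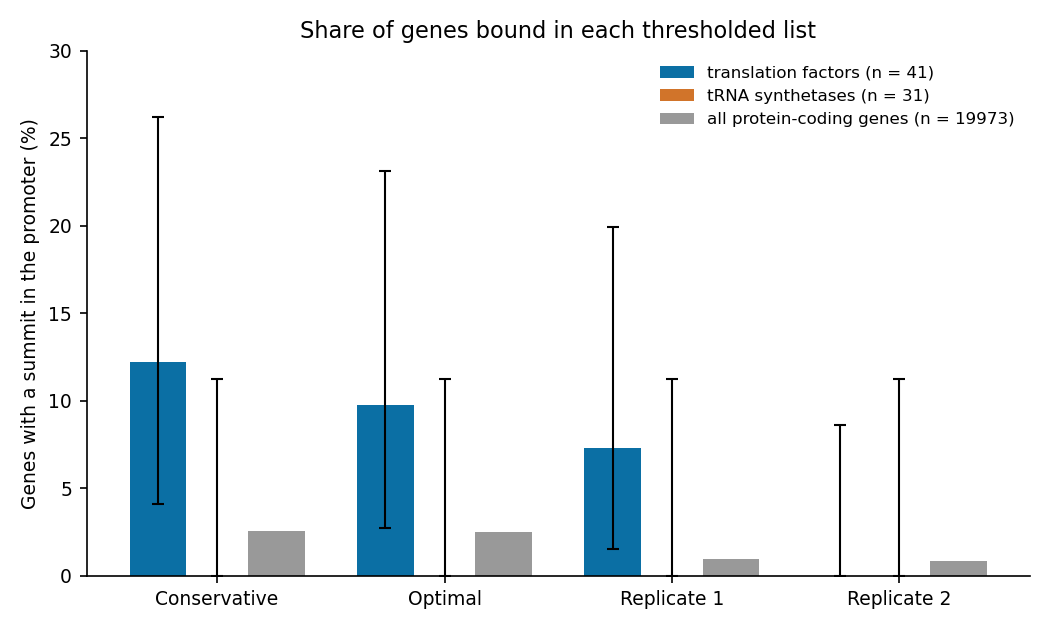
Percent of genes with a peak summit in the promoter (y axis) in each of the 4 thresholded lists (x axis), for 41 translation factors, 31 tRNA synthetases and all 19973 genes. Bars are shares and lines exact 95% intervals for counting error; translation factors reach 12.2% in the conservative list and 0 in that of replicate 2, and the synthetases are at 0 in all 4.

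The longer ranked lists, from 72371 to 95923 peaks each, show where weaker peaks lay. The signal is the authors' peak caller value. It is not scaled between lists, so each gene was also given a percentile, the percent of all 19973 genes whose strongest promoter peak in that list had a lower signal. A gene with no listed promoter peak has a percentile of 0, which says only that the list held none. In the ranked list of the pooled replicates, 58 of the 72 genes had a promoter peak, or 80.6%, beside 65.8% of all genes. The shares were 70.8% in replicate 1, beside 62.5%, and 68.1% in replicate 2, beside 59.2%. Replicate 1 listed a promoter peak for 31 of 41 translation factors (75.6%) and 20 of 31 synthetases (64.5%). In replicate 2 the order was the other way round, with 26 of 41 (63.4%) and 23 of 31 (74.2%).

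The median percentile in the pooled list was 60.7 for the 72 genes, beside 50.0 for all genes. It was 70.4 for the translation factors and 57.0 for the synthetases. The medians were in the same order in both replicates, at 68.7 and 55.8 in replicate 1 and 62.8 and 54.3 in replicate 2. Among the 5% of genes with the highest promoter signal were 10 of the 72 in the pooled list (13.9%), 11 in replicate 1 (15.3%) and 6 in replicate 2 (8.33%), each beside a background of 5% of all genes. Of the 10 in the pooled list, 8 were translation factors and 2 were synthetases. The 6 in replicate 2 were all translation factors. Both replicates placed 4 of the 72 in that top group (5.56%), beside 2.16% of all genes, and these 4 were eif-3.C, pab-2, eif-2Bgamma and eef-1A.1.

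**Figure D2:**
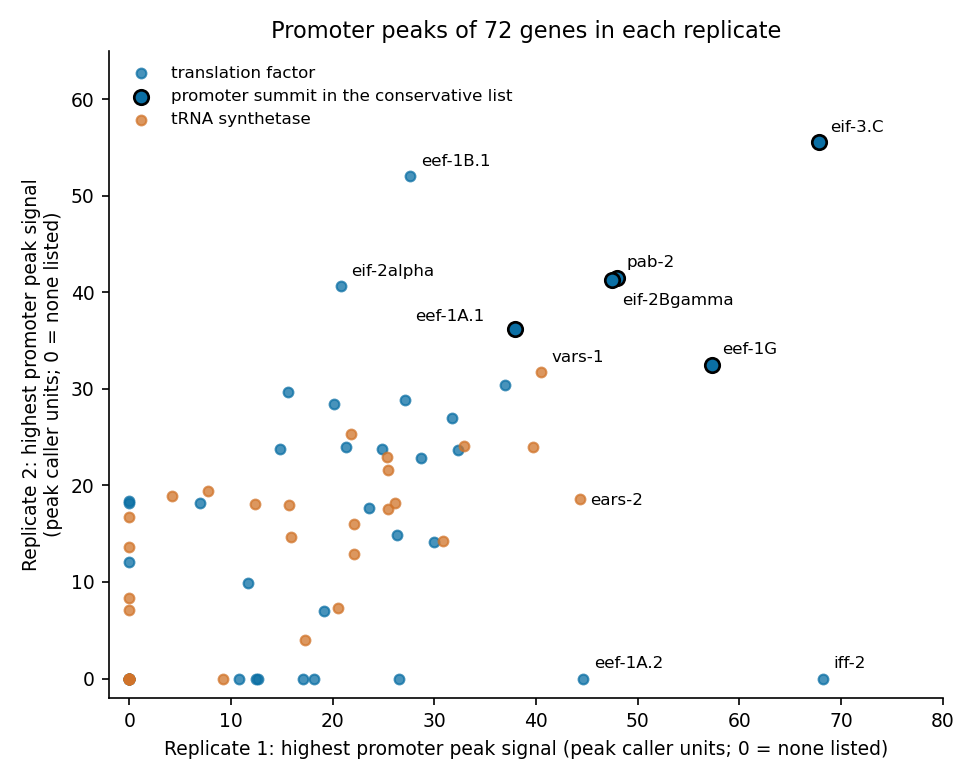
Highest promoter peak signal of each of the 72 genes in replicate 1 (x axis) and replicate 2 (y axis), in peak caller units, with 0 where a list held no promoter peak. Outlined points are the 5 genes bound in the conservative list; eif-3.C is high in both replicates, and iff-2 and eef-1A.2 lie on the x axis.

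Across the 72 genes the percentiles of the replicates had a Spearman rho of 0.61, beside 0.52 over all genes. It was 0.57 over the 41 translation factors and 0.73 over the 31 synthetases. The points share 2 libraries and neighbouring genes share peaks, so the values are descriptions. Both replicates listed a promoter peak for 42 of the 72 genes, replicate 1 alone for 9, replicate 2 alone for 7, and neither for 14. Over all 19973 genes the counts were 9380 for both, 3105 for replicate 1 alone, 2447 for replicate 2 alone and 5041 for neither.

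Among the initiation factors, the strongest promoter peak was that of eif-3.C, which encodes a subunit of eIF3, the large complex that binds the small ribosomal subunit. Its signal was 117.7 in the conservative list, at rank 419 of 1537, and its summit lay 237 bp upstream of the 5′ end, outside protein-coding genes, in the peak chrI:9979759-9980038. The signal was 67.9 in replicate 1 and 55.5 in replicate 2, and its percentiles of 99.4 and 99.2 were nearly equal. The other 10 eIF3 genes were not bound by the promoter rule. The pooled percentiles of the 11 eIF3 genes had a median of 68.0 and ran from 0 for eif-3.F and eif-3.H, through 36.5 for eif-3.L, 50.8 for eif-3.D, 51.4 for eif-3.B, 68.0 for eif-3.I, 71.1 for eif-3.E, 78.0 for eif-3.K and 88.2 for eif-3.J, to 95.7 for eif-3.G and 99.3 for eif-3.C. The eIF3 genes with a pooled promoter peak thus ran from 36.5 to 99.3 in percentile. For eif-3.F and eif-3.H, replicate 2 alone listed promoter peaks, at percentiles of 48.4 and 64.8.

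A much stronger peak lay just outside the promoter window of eif-3.G, which encodes another eIF3 subunit. It was picked out after its values were seen. Its conservative signal was 319.7, at rank 14 of 1537, and its summit lay 1068 bp upstream of eif-3.G, 68 bp outside the promoter window and in an intron of the neighbouring gene lips-10. The signal was 153.9 in replicate 1 and 158.6 in replicate 2, and both thresholded lists held the peak, at rank 16 of 629 and 28 of 545. No annotated small RNA gene and no RefSeq tRNA pseudogene lay within 200 bp of the summit. The stretch printed above holds 1 match to TGGCNNAGT and 1 to GTTCNANNC, both on the strand opposite to eif-3.G. Both motifs were added after this sequence had been read, so their matches here are not a test. In the 100 bp around the summit, TGGCNNAGT was found at this peak and at 5.92% of all 1537 peaks. The GTTCNANNC match lay outside that 100 bp window, in which 19.6% of all peaks held one. Inside its promoter window eif-3.G had a second, weaker peak 335 bp upstream, with a pooled signal of 67.4 and signals of 31.8 and 27.0 in the replicates. At the edge of the rule, eif-2Bgamma at 796 bp was the bound gene with the most distant summit, and eif-3.G at 1068 bp lay just outside.

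**Figure D3:**
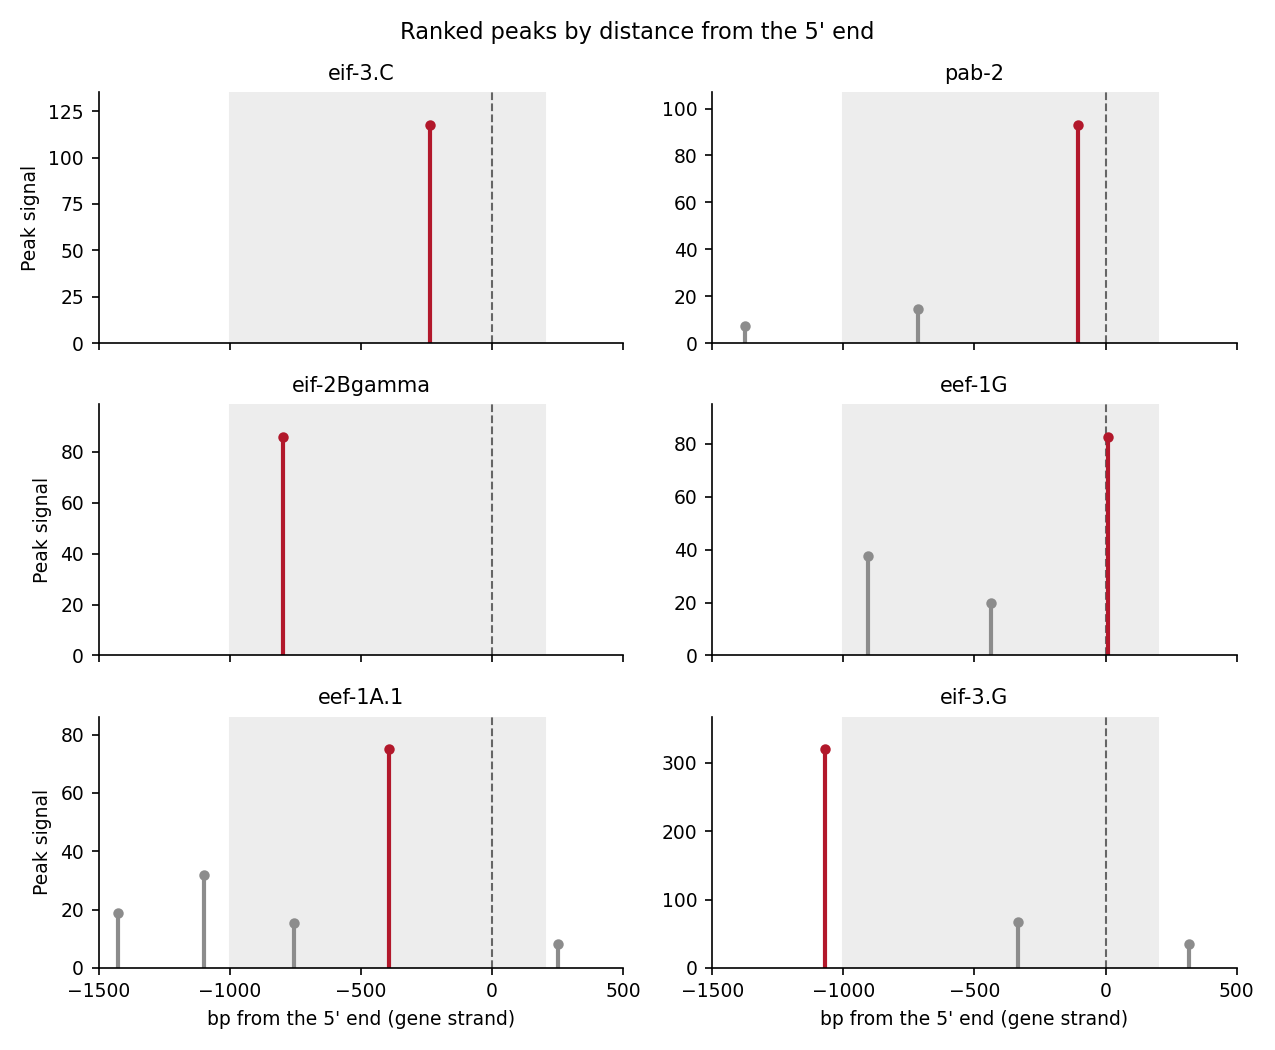
Peaks of the pooled ranked list around 6 genes, by distance of the summit from the annotated 5′ end (x axis, bp on the gene strand, negative upstream) and signal (y axis, peak caller units, own scale per gene). Red marks peaks of the conservative list, grey the others, and the shaded band the promoter window; the peak of 319.7 upstream of eif-3.G lies outside the band.

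The exchange factor eIF2B reloads eIF2 with GTP so that eIF2 can carry the next initiator tRNA. Of its subunits, eif-2Bgamma was bound, with a conservative signal of 85.7 at rank 911 of 1537. The signal was 47.5 in replicate 1 and 41.2 in replicate 2, at percentiles of 98.3 and 97.7. Its summit, 796 bp upstream, lay in an intron of the gene C15F1.5 and within 200 bp of 2 genes annotated as snRNA, sup-39 and mir-1831. Whether the peak belongs to eif-2Bgamma, to C15F1.5 or to these small RNA genes was not tested. The other subunits of eIF2B ran from a percentile of 34.6 for eif-2Bbeta and 37.1 for eif-2Balpha to 81.7 for eif-2Bdelta and 91.1 for eif-2Bepsilon. The eif-2Bepsilon summit was nearer to the 5′ end of piga-1, at 23 bp, than to its own at 134 bp.

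The subunits of eIF2 itself were not bound, but all 3 were above the middle of the genes in the pooled list, at 75.6 for eif-2gamma, 85.5 for eif-2alpha and 92.5 for eif-2beta. In replicate 1 the eif-2alpha signal was 20.8, at percentile 70.4, and in replicate 2 it was 40.6, at percentile 97.5. The replicates therefore placed eif-2alpha differently. For eif-2beta the signals were 28.7 and 22.8, at percentiles of 87.3 and 78.0. Of the genes for eIF2A and eIF2D, factors that in mammals can deliver tRNA without eIF2, eif-2D stood at 83.2 in the pooled list and had no promoter peak in replicate 2, and eif-2A had none in any of the 3 ranked lists.

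None of the remaining genes among the 72 that are named as initiation factors was bound. Among the 5 eIF4E proteins, which bind the mRNA cap, pooled percentiles ran from 0 for ife-5 through 39.0 for ife-4, 64.0 for ife-3 and 78.6 for ife-2 to 80.3 for ife-1. For ifg-1, which encodes the eIF4G scaffold that eIF4E binds, no ranked list held a promoter peak. The DEAD-box helicase gene eif-4A3 was at 41.7, eif-1 at 37.5 and eif-1.A at 51.0. The gene eif-6, whose product keeps the large ribosomal subunit from joining too early, was higher, at 96.9. Its summit lay in its own coding exon 163 bp downstream of the 5′ end, with a pooled signal of 73.0 and signals of 36.9 in replicate 1 and 30.4 in replicate 2.

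The 6 elongation factor genes had a median percentile of 92.9 in the pooled list, the highest of any role with more than 2 genes. It was 92.4 in replicate 1 and 73.3 in replicate 2, where the 3 eIF2 genes were higher, at 90.8. The gene eef-1G, which encodes the gamma subunit of the eEF1 complex, had a conservative signal of 82.5 at rank 1016 of 1537, with its summit 8 bp downstream of the 5′ end. Its replicates were further apart than those of the other bound genes, with 57.3 (percentile 99.1) in replicate 1 and 32.5 (percentile 93.6) in replicate 2. The summit also lay 188 bp upstream of ctf-4, so this peak fell in the promoter windows of both genes. The gene eef-1A.1 encodes eEF1A, the factor that delivers charged tRNA to the ribosome. Its peak had a conservative signal of 74.9, at rank 1295 of 1537, and lay 394 bp upstream of eef-1A.1, nearer to rfc-4 at 147 bp, and within 200 bp of the miRNA gene cel-mir-5549. The signals were 38.0 and 36.2, with percentiles of 95.8 and 96.0, so the replicates hardly differed. Neither replicate's thresholded list held this peak, and the optimal list left it out.

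The second eEF1A gene, eef-1A.2, was not bound and its replicates did not match. The list of replicate 1 held a peak of 44.6 at percentile 97.8, and that of replicate 2 held none in the promoter. The gene eef-1B.1, for the subunit that reloads eEF1A with GTP, showed the opposite lean, with 27.6 (percentile 85.6) in replicate 1 and 52.0 (percentile 99.1) in replicate 2. Its pooled percentile was 96.6, and the summit, in its 5′ UTR, also lay 351 bp upstream of aco-2. The other gene of this name, eef-1B.2, was at 41.6. For eef-2, which encodes the factor that moves the ribosome along the mRNA, the promoter peak had a pooled percentile of 70.4.

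Both genes for poly(A)-binding proteins, which coat the tails of mRNAs, were measured. The promoter of pab-2 was bound, with a conservative signal of 93.1 at rank 701 of 1537 and a summit 106 bp upstream, outside protein-coding genes and in no other promoter window. Its signals were 47.9 in replicate 1 and 41.5 in replicate 2, at percentiles of 98.3 and 97.7. For pab-1 the pooled percentile was 48.1, with signals of 19.1 and 7.0 in the replicates. The values of pab-1 lay below those of pab-2 in both replicates.

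The eIF5A gene iff-2 was the clearest case of a peak in 1 replicate. In yeast eIF5A helps the ribosome past stretches where it stalls. Replicate 1 held the peak chrII:8561295-8561564, with its summit 63 bp upstream of the 5′ end and a signal of 68.3, at rank 347 of 629 in the thresholded list and percentile 99.4. Neither replicate 2 nor the combined lists held a peak there. The signal in replicate 1 was the highest promoter value of any of the 72 genes in that replicate. The other eIF5A gene, iff-1, was at 53.9 in the pooled list and had no promoter peak in replicate 2.

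**Figure D4:**
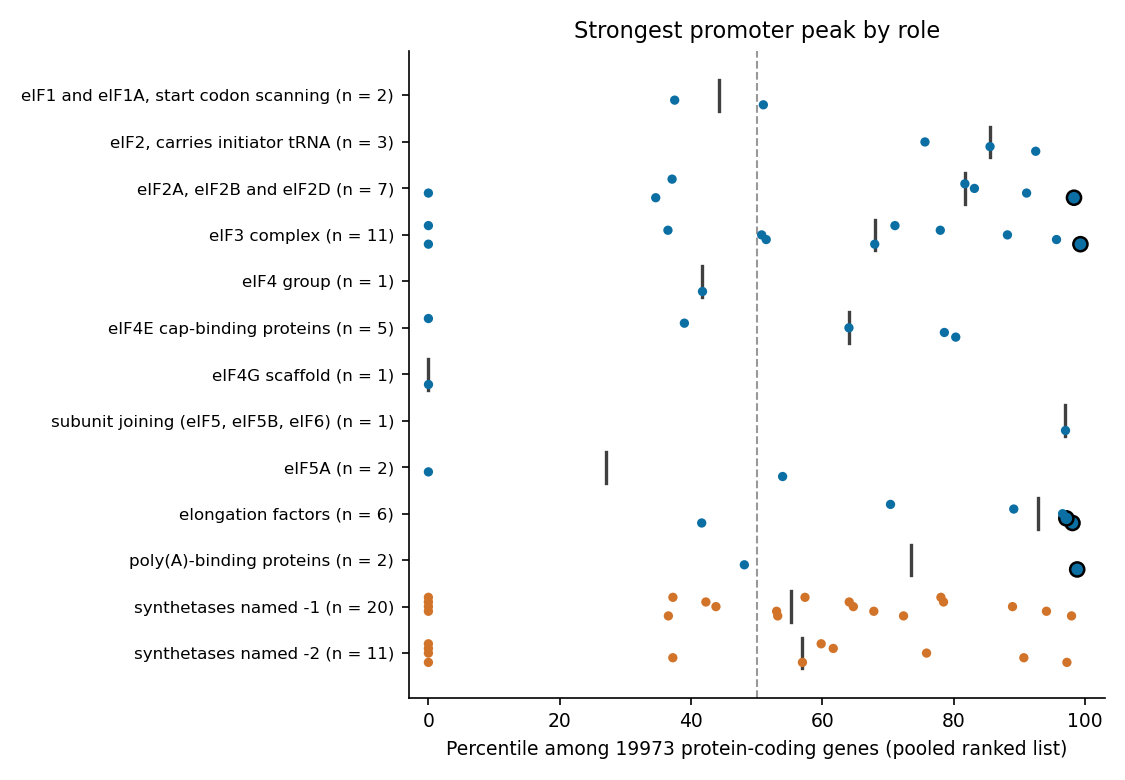
Pooled percentile of the strongest promoter peak (x axis, percent of 19973 genes with a lower signal, 0 where no peak was listed) for the 72 genes by role (y axis). Outlined points are the 5 bound genes, vertical bars are medians and the dashed line is at 50; elongation factors have a median of 92.9 and the synthetases lie on both sides of the line.

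The tRNA synthetases were spread over nearly the whole range of percentiles, and none had a promoter summit in the conservative list. Their pooled percentiles ran from 0 to 97.9, and 18 of 31 were above 50. The highest was vars-1, for valyl-tRNA synthetase, with a pooled signal of 80.9 in the peak chrV:8031127-8031406, a summit 144 bp upstream and signals of 40.5 and 31.7 at percentiles of 96.8 and 93.0. Next was ears-2, a glutamyl-tRNA synthetase gene, with a pooled signal of 75.4 at percentile 97.2. Replicate 1 gave ears-2 a signal of 44.3 (percentile 97.7) and replicate 2 one of 18.6 (percentile 65.9), and the summit also lay 77 bp upstream of uncp-18. The pooled signals of vars-1 and ears-2 were above the 74.9 of eef-1A.1, which was bound. A deposited score of how well peak ranks repeat, −log10 IDR, was lower for both. It was 1.90 for vars-1 and 1.89 for ears-2, beside 2.04 for eef-1A.1. In the other combined ranked list these were 1.83, 0.33 and 1.41, so there vars-1 was above eef-1A.1. The alanyl-tRNA synthetase gene aars-1 was at 94.1, with signals of 39.7 and 23.9, and its summit also lay 325 bp upstream of rga-1. For yars-2, a tyrosyl-tRNA synthetase gene, the percentile was 90.7 and the summit, 528 bp upstream, lay in a coding exon of miro-1.

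The 20 synthetase genes with names ending in ars-1 and the 11 ending in ars-2 had pooled medians of 55.3 and 57.0. Below yars-2 and above the median of all genes were nars-1 at 89.0, kars-1 at 78.5, dars-1 at 78.1, pars-2 at 75.9, tars-1 at 72.4, gars-1 at 67.8, cars-1 at 64.7, rars-1 at 64.1, rars-2 at 61.7, iars-2 at 59.8, pars-1 at 57.4, sars-2 at 57.0, fars-1 at 53.2 and iars-1 at 53.0. Below the median of all genes were sars-1 at 43.8, ears-1 at 42.3, hars-1 and lars-2 at 37.2 and qars-1 at 36.5. No promoter peak was in the pooled list for aars-2, dars-2, fars-2, nars-2, lars-1, mars-1, wars-1 and yars-1. Among all 72 genes, 14 were without one in the pooled list and 8 without one in any of the 3 ranked lists, namely eif-2A, ife-5, ifg-1, aars-2, dars-2, nars-2, wars-1 and yars-1. The lowest percentile was thus shared by 14 genes, and no order among them can be given.

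Some peaks lay inside the genes. These were named after their values were seen. The conservative list held a summit inside the gene for 4 of the 72 (5.56%), beside 3.63% of all genes, and the median gene was longer among the 72, at 2590 bp, than among all genes, at 2027 bp. The synthetases made up 2 of the 4, which is 6.45% of 31 (exact 95% interval 0.79 to 21.4%), and their median gene length was 3605 bp. The interval holds the background of 3.63%. The 4 were eef-1G, eef-2, cars-1 and fars-1. The eef-1G summit was the promoter peak already counted above, 8 bp downstream of the 5′ end. Those of the other genes lay outside their own promoter windows, so the share of 5.56% is not one of peaks away from promoters. The strongest was in an intron of fars-1, for a subunit of phenylalanyl-tRNA synthetase, with a conservative signal of 228.2 at rank 56 of 1537, in the peak chrI:6212829-6212903. It was 97.5 in replicate 1 and 127.3 in replicate 2, in both thresholded lists. The peak lay within 200 bp of the snoRNA gene T08B2.13 and of T08B2.t1, which RefSeq annotates as a tRNA pseudogene. Its summit also fell in the promoter window of mrpl-23, the nearest gene, 1000 bp upstream of that gene's 5′ end. In a coding exon of eef-2 the signal was 92.4, with 56.7 and 36.6 in the replicates. In cars-1, for cysteinyl-tRNA synthetase, coding exons held 2 peaks, of 77.6 and 72.1, and the second was not in the optimal list.

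None of the 5 bound promoters had its summit within 200 bp of a tRNA gene. Of the 5 summits, 2, those of eef-1G and eef-1A.1, lay in another gene's promoter window too. The matching shares over all peaks were not computed, so neither count is read as a trait of these promoters. Over all genes, leaving out peaks within 200 bp of a tRNA, snoRNA or snRNA gene took the bound count from 509 to 404. In the 100 bp around the summit, CCGCCC was found at pab-2 and eif-2Bgamma, and at 6.96% of all 1537 peaks. The eif-2Bgamma summit is the one within 200 bp of sup-39 and mir-1831, annotated as snRNA. GAGAG was found at eef-1A.1, and at 27% of all peaks. TATAAA (3.51% of all peaks), ACAATGT (0.911%), CAGCTG (3.71%) and GTTCGANNC (11.6%) were found at none of the 5. A match is a run of letters in this window and no more. The median G and C content of these windows was 56% at the 5 promoters, from 47 to 57%, beside 51% over all peaks, whose quartiles were 46 and 55%.

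Other genes of protein synthesis were taken from a list of 35 names, chosen with earlier results of these data known. Of these names, 34 were found in the annotation. They include release factors, mitochondrial factors, tRNA modifying enzymes, RNA polymerase III subunits, and kinases of eIF2 and of the TOR pathway. In the conservative list 4 of 34 were bound, or 11.8% (exact 95% interval 3.30 to 27.5%), beside the same 2.55%, and their median pooled percentile was 59.3. The highest was larp-1, an mRNA-binding protein gene, with a signal of 126.5 and replicate signals of 65.9 and 65.4, in a window shared with wip-1. The others were rpc-2, a subunit gene of RNA polymerase III, at 91.5, drr-2, the eIF4H gene, at 91.3 in a window shared with set-16, and ifet-1, for a protein that binds eIF4E, at 89.3 in a window shared with rps-1. The eIF4A helicase gene inf-1 had no promoter peak in the pooled list or in either replicate.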

How the data were processed

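ChIP-seq peak lists of 2 biological replicates of 1 group were used, all on assembly ce11 per the labels. The authors deposited thresholded and ranked lists, both per replicate and for combined replicates, made with the irreproducible discovery rate (IDR), which measures how well peak ranks repeat. They were made with an aligner and a peak caller not given in the sources used here, and the control named in the deposited notes was not analysed here. Each deposited list gives the authors' signal value per peak, not scaled between lists, so it was ranked within a list. A further deposited column of the ranked lists holds each peak's −log10 IDR, treated as a score and used for no call. Read depth is unknown from these lists, and only the number of listed peaks is given.

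Genes and biotypes came from Ensembl release 115, sequence and tRNA pseudogenes from RefSeq. Positions are 1-based. The promoter window ran from 1000 bp upstream of a gene's 5′ end to 200 bp downstream, and a summit inside it made the gene bound. Intervals are exact (Clopper-Pearson) 95% intervals. The separate limit printed for a count of 0 is 3 counts of the total, which lies below the exact upper limit. Peak assignment, percentiles and motif search were checked on simulated data with planted peaks. Python 3.11.15, pandas 2.3.3, numpy 2.4.6, scipy 1.17.1 and matplotlib 3.10.9 were used.

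The members, gene lists, 6 motifs and tests were chosen with earlier results of these data known, and 2 motifs were added after a sequence was read. Genes named were every bound member, members bound only in another thresholded list, the 10 strongest others, the lowest, the neighbours at their summits and bound genes of the list of 35. As alternatives, the calls were repeated with the optimal list, each replicate's own list, the stronger peaks, other windows, any transcript's 5′ end, overlap in place of summit, the nearest gene only, another combined ranked list, and leaving out peaks near small RNA genes (tRNA, snoRNA and snRNA, and then miRNA too) or genes with no peak.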

Additional observations from a re-analysis of the deposited data

How the results depend on the processing

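The count of 5 bound genes, all translation factors, stood beside 2.55% of all genes. It was 4 in the optimal list (without eef-1A.1), beside 2.52%, and 4 with 500 bp upstream, beside 1.62%. Without peaks within 200 bp of a tRNA, snoRNA or snRNA gene it was 4, beside 2.02%. With the nearest gene only it was 4, beside 2.01%. It was 6 with 2000 bp upstream, beside 4.12%, and 6 with peak overlap in place of the summit, beside 2.99%. Both of these wider rules added eif-3.G. Among peaks at or above the median signal the count was 2, eif-3.C and pab-2, for all 72 genes and for the translation factors alike, beside 1.31% of all genes. With 1 replicate left out, taken as the other replicate's own thresholded list, it ranged from 0 to 3 for both. Those lists are shorter than the combined one, and the background fell with them, to 0.821% and 0.941% of all genes. Leaving out peaks near miRNA genes as well, an alternative chosen after seeing the data, gave 3 for both, since it also dropped eef-1A.1. The background was then 2% of all genes. The synthetases stayed at 0, including in both replicates' lists, except that the 5′ end of any transcript gave 1, cars-1, beside 2.92% of all genes. The median percentile of 60.7 was 55.5 when genes with no ranked peak were left out, and ranged from 56.5 to 61.8 with 1 replicate left out, with an SD of 3.69 between the replicates. Percentiles of single genes moved most for iff-2, from 0 in the pooled list to 99.4 in replicate 1, and for eef-1A.2, from 89.1 to 0 in replicate 2. No paired analysis was possible because there is a single group of 2 replicates. The number of replicates and of genes per role limits what can be told apart.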
